A study of Mus musculus with 20 samples.

Results

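The 130 array probes described here read lower with tamoxifen than without it on days 1 and 2 in mouse embryonic stem (ES) cells carrying Zscan4-ERT2, and on day 4 they were not lower by as much as 0.4 (log2) in cells kept in tamoxifen than in cells from which it had been withdrawn. They were chosen from 42006 probes on Agilent's processed signals, as the log2 ratio of sample over reference minus the array's median. Each had a sample channel well above background on the 4 untreated arrays of days 1 and 2, which 26177 probes met. Each was also lower by 0.7 or more on this log2 scale in tamoxifen-treated than in untreated cells on day 1 and again on day 2, which 459 probes met. On both days the treated and untreated cells lay on different slides, so slide and tamoxifen cannot be told apart in these differences. The day 4 difference, continued minus withdrawn tamoxifen, then divided these 459. The 130 had a difference above -0.4, and the other 329 had one at or below -0.4.

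All cells were the ES_ZERT clone numbered 18, derived from V6.5 ES cells (C57BL/6 x 129/Sv) and grown with serum and LIF as a monolayer on gelatin. The 10 groups had 2 arrays each: day 0, untreated day 1 and untreated day 2, tamoxifen (200 nM) kept on until day 1, 2, 3 or 4 (continued), and tamoxifen on day 1 only with sampling on day 2, 3 or 4 (withdrawn). The vector pCAG drives the transgene in every group, controls included, so no group lacks Zscan4-ERT2, and all results rest on 1 clone. No untreated cells of days 3 and 4 were analysed here, so tamoxifen and time in culture cannot be told apart in comparisons of those days with day 0. Nothing in the labels ties the 2 arrays of a group to different cultures. Their spread, on which all p-values rest, may therefore be technical.

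Zscan4 proteins carry zinc fingers and a SCAN domain, and in cultured mouse ES cells they appear in short bursts in a small share of the cells, together with other genes of the early embryo. Fusion to ERT2, a mutated hormone-binding domain of the oestrogen receptor, keeps the partner protein inactive until tamoxifen binds. Adding and removing tamoxifen therefore asks which transcripts change with the drug at once and which keep their new level when it is gone. As no group lacks the fusion protein, its effects and those of tamoxifen itself cannot be told apart here. The probes carry no gene names in the files, so the ES cell label and the lists of marker and pathway genes could not be checked against them, and probes are named by identifier.

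Some of the 130 probes overlap others in sequence and may read the same RNA, which was not checked against transcripts. They are printed 5′ to 3′ as on the array, with the shared bases in capitals. The pair that lay furthest below day 0 after withdrawal shares 58 bases.
Z00074409-1: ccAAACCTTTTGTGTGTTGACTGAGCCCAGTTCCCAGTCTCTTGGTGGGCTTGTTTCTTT
Z00025726-1: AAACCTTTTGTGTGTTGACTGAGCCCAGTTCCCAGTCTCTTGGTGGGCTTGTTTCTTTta
A pair that was low until day 3 and above day 0 on day 4 shares 44 bases.
Z00020448-1: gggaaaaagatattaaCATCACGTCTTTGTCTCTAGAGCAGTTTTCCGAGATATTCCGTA
Z00074626-1: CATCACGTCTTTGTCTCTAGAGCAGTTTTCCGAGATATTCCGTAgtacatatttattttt
In the last 2 pairs only the first probe is one of the 130, and the overlaps are 38 and 59 bases.
Z00015207-1: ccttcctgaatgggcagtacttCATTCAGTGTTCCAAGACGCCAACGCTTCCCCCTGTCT
Z00075231-1: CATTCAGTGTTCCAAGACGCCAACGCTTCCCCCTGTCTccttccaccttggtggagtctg
Z00060342-1: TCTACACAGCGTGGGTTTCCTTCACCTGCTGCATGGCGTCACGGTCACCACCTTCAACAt
Z00024325-1: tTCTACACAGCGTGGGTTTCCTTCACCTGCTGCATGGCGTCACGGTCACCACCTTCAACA
Of the probes without a partner, 3 are shown because they had the lowest tamoxifen differences (Z00029155-1), a deep fall (Z00075588-1) or a stepwise one (Z00022662-1).
Z00029155-1: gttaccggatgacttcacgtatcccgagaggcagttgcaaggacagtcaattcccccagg
Z00075588-1: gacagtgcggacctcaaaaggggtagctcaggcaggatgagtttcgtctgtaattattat
Z00022662-1: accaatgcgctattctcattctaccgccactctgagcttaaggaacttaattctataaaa

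The differences that chose the probes are given as a description, with no test. On day 1 they ran from -2.50 to -0.70 with a median of -0.96, on day 2 from -3.21 to -0.71 with a median of -1.04, and on day 4 from -0.40 to 1.19 with a median of -0.16. On day 4, 57 of the 130 still had a difference of -0.2 or lower and 31 a difference above 0. The 6 lowest means of the day 1 and day 2 differences belonged to Z00029155-1 (-2.85), Z00070603-1 (-2.74), Z00041311-1 (-2.32), Z00029238-1 (-2.26), Z00010159-1 (-2.13) and Z00075588-1 (-2.12). Most of these were dim. The day 0 sample signals were 37.7, 24.7 and 16.9 units for Z00029155-1, Z00070603-1 and Z00010159-1, against 2422 for Z00075588-1 and a median of 189 over the 130 probes.

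The limits cut through a continuous range. Just inside the day 1 limit lay Z00056864-1 at -0.704, Z00045503-1 at -0.710 and Z00075493-1 at -0.710, and just outside it Z00005043-1 at -0.698, Z00072155-1 at -0.692 and Z00040464-1 at -0.687. At the day 2 limit, Z00015191-1 at -0.707, Z00062672-1 at -0.731 and Z00063097-1 at -0.734 were inside, and Z00062287-1 at -0.693, Z00014751-1 at -0.692 and Z00074998-1 at -0.690 outside. For day 4 the nearest members were Z00045503-1 at -0.3973, Z00030455-1 at -0.3938 and Z00001247-1 at -0.3937, and the nearest probes left out were Z00076612-1 at -0.4003, Z00012150-1 at -0.4009 and Z00074431-1 at -0.4018. Applied to the log2 ratios described next, the same limits chose 63 probes, 42 of them among the 130.

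All values from here on, unless named as processed signals, are log2 ratios of sample over reference after normexp background correction (offset 50) and loess, a scale that shrinks differences of dim probes. Relative to day 0, the median of the 130 probes was 0.26 in untreated cells of day 1 and -0.28 in tamoxifen on day 1. It was 0.08 in untreated cells of day 2, and -0.43 and -0.44 in continued and withdrawn cells of day 2. On day 3 it was -0.51 in continued and -0.50 in withdrawn cells, and on day 4 -0.40 and -0.34. Over all 29414 probes tested, the median stayed between -0.01 and 0.04 in all 9 groups. In these bulk samples, fewer cells of a type and less RNA per cell cannot be told apart.

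**Figure D1:**
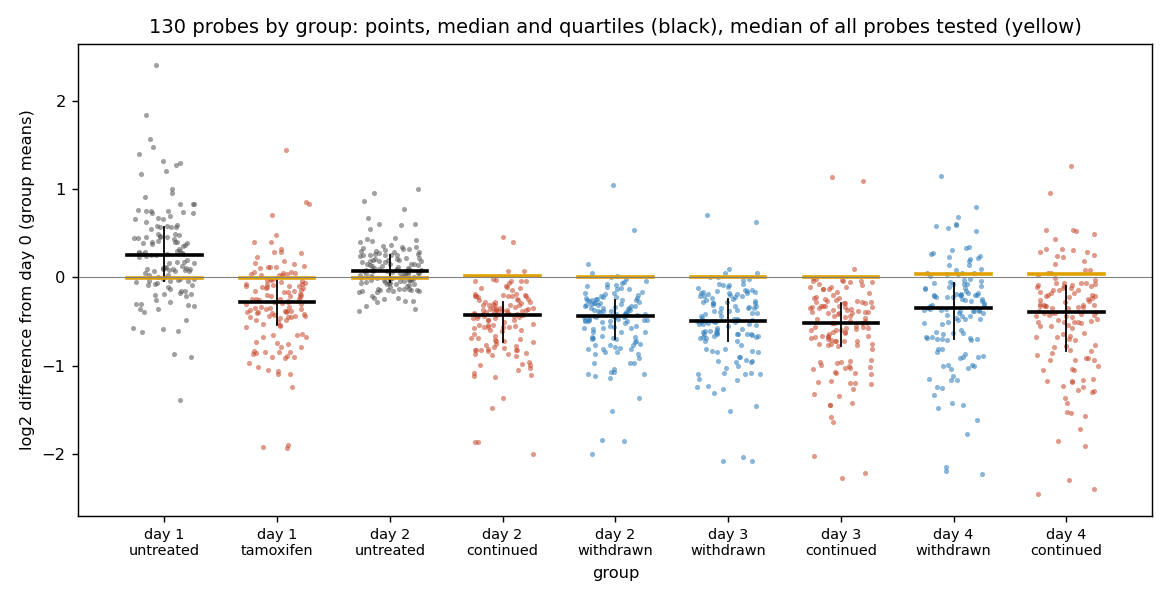
Log2 difference of each of the 130 probes from day 0 (y axis, group means of 2 arrays) in the other 9 groups (x axis), with grey points for untreated, red for continued and blue for withdrawn cells. The black line is the median with a bar over the quartiles and the yellow line the median of all 29414 probes tested; from day 2 the medians of treated groups lie between -0.34 and -0.51.

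The choice favoured probes with high readings in untreated cells of day 1, so their levels on that day are a description only. On day 1 without tamoxifen, 92 of the 130 probes had a mean above day 0, against 48.3% of all probes tested, and 29 were at or above day 0 even with tamoxifen on that day. For all 29 the untreated level of day 1 was above day 0 as well. For these, the lower reading with tamoxifen was a smaller rise from day 0, not a level under it. Z00041311-1 was at -0.58 and -0.59 on day 0, 1.17 and 1.35 in untreated cells of day 1, -0.23 and -0.35 with tamoxifen that day, and 0.25 and -0.07 in untreated cells of day 2. Its tamoxifen-treated arrays of day 1 thus lay between those of day 0 and of untreated day 1.

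To see whether the drug's presence still mattered after 2 days without it, continued and withdrawn cells of day 3 were compared. Neither group was used in choosing the probes, and their 4 arrays shared a slide. None of the 130 probes was lower (limma, adjusted p under 0.05), against 0.367% of all probes tested, and none was higher, against 0.153%. At an unadjusted p under 0.05, 14 were lower in continued cells, against 4.2% of all probes, and 1 was higher, against 5.11%. The median difference, continued minus withdrawn, was -0.04 with a range of -0.29 to 0.46, beside a median of 0.01 over all probes, and 86 of the 130 were below 0. Standard errors ran from 0.048 to 0.25 with a median of 0.078. The 95% interval lay within -0.3 to 0.3 for 99 probes and within -0.5 to 0.5 for 127. Among the 329 probes with the lower day 4 difference, 74 were lower in continued cells and none was higher, with a median of -0.20. The contrast between the 130 and the 329 was not tested.

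**Figure D2:**
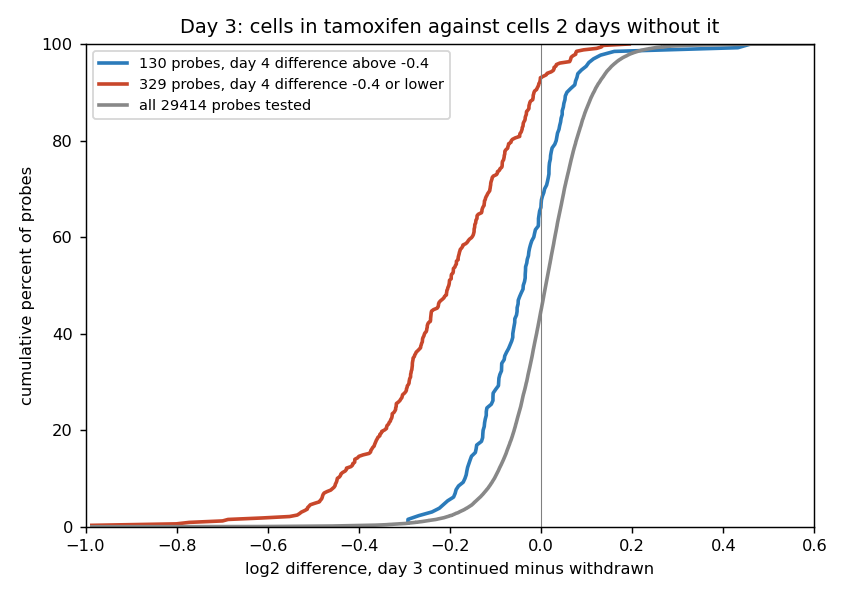
Cumulative percent of probes (y axis) by their log2 difference between continued and withdrawn cells on day 3 (x axis; values below -1 or above 0.6 are not drawn). The curve of the 130 probes (blue, median -0.04) lies near that of all 29414 probes (grey, median 0.01), and the 329 probes with the lower day 4 difference (red) have a median of -0.20.

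The lowest differences on day 3 belonged to Z00015207-1 and Z00030455-1 (both -0.29), Z00035537-1 (-0.27) and Z00072951-1 (-0.24). Z00035537-1, the brightest of the 130 probes on day 0, read 0.03 and -0.03 on the withdrawn arrays and -0.26 and -0.28 on the continued arrays. These arrays did not overlap, yet the difference of -0.27 (SE 0.060, 95% interval -0.40 to -0.14) narrowly missed the threshold at an adjusted p of 0.057. Without background correction its adjusted p was 0.047, and among probes well above background on all 20 arrays it was 0.045, in a range of 0.045 to 0.56 over 14 alternatives. Z00030455-1 read -1.21 and -1.29 on the withdrawn and -1.56 and -1.52 on the continued arrays (adjusted p = 0.11). It also sat just inside the day 4 limit of the rule.

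At the other end were Z00061746-1 (0.46), Z00071186-1 (0.43), Z00050436-1 (0.16) and Z00064423-1 (0.13), all uncalled. Z00071186-1 read 1.10 and 1.18 on the withdrawn arrays and 1.53 and 1.61 on the continued ones, without overlap (SE 0.17, adjusted p = 0.40). With only these 4 arrays in the fit, its adjusted p was 0.028, the lowest of 14 alternatives that reached up to 1. Z00061746-1 varied more between replicates, at -0.09 and 0.42 on the withdrawn and 0.74 and 0.51 on the continued arrays (SE 0.25, adjusted p = 0.62).

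Whether the probes stayed low was asked against day 0, whose arrays the choice did not use. On day 3, 2 days after withdrawal, 105 of the 130 probes were below day 0, against 19.2% of all probes tested, and 1 was above it, against 20.5%. The median difference was -0.50 (range -2.08 to 0.70) beside 0.00 over all probes, and 18 of the falls reached 2-fold, against 0.748% of all probes. In continued cells of day 3, 109 were lower, against 20.6%, and 2 higher, against 23.6%, with a median of -0.51 and 24 falls of at least 2-fold, against 1.16%. After 1 day of withdrawal, on day 2, 107 were lower, against 15.8%, and 2 higher, against 16.1%, with a median of -0.44 and 12 falls of at least 2-fold, against 0.643%. These 3 comparisons share the day 0 arrays. In all 3, 98 probes were called lower, against 10.1% of all probes tested, and 15 were called lower in none, against 73.2%. Day 0 and the later groups lay on different slides, so slide and group cannot be told apart here. The falls called in withdrawn cells of day 3 include some probes, such as Z00010159-1, not well above background on any array of either group. Such calls set background against background and cannot show whether the RNA fell.

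The number of falls called depended on how the spread was estimated. One array of untreated day 1, which is in none of these comparisons, held outlying local backgrounds that were replaced by the array's median. With them as given, 69 of the 130 probes were lower in withdrawn cells of day 3, against 11.9% of all probes, and 57 in those of day 2, against 8.65%, with the same median of -0.50 on day 3. Dim probes of the 130 also gave fewer calls, but the shares called among all bright and all dim probes were not computed. Over all probes tested together, 19.2% were lower in withdrawn cells of day 3. Of the 84 probes well above background on all 20 arrays, 74 were lower than day 0 in withdrawn cells of day 3 (median -0.63). Of the other 46, 31 were lower (median -0.26). On processed signals without the offset both medians were near -1, at -0.96 and -1.02.

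**Figure D3:**
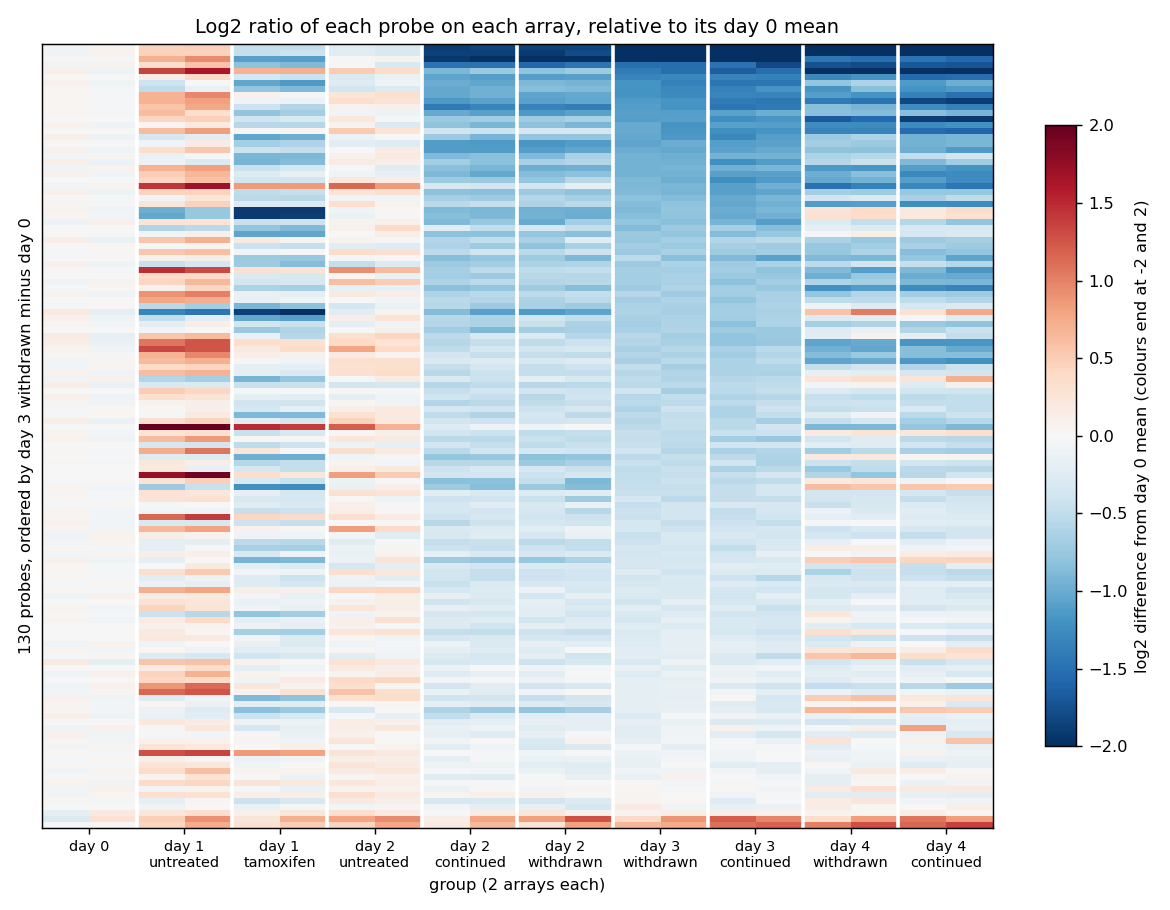
Log2 ratio of the 130 probes (rows, ordered by day 3 withdrawn minus day 0) on each of the 20 arrays (columns, 2 per group), relative to the probe's day 0 mean. Blue is below and red above day 0, with colours ending at -2 and 2; the 2 arrays of a group look alike, and on day 4 some rows are red in both schedules while those at the top stay blue.

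The overlapping probes Z00074409-1 and Z00025726-1 gave the deepest falls. Z00074409-1 read 0.81 and 0.94 on day 0, 1.32 and 1.35 in untreated cells of day 1, 0.41 and 0.38 in tamoxifen on day 1, and 0.64 and 0.55 in untreated cells of day 2. On day 2 it read -1.03 and -0.96 in continued and -0.97 and -0.96 in withdrawn cells. On day 3 it read -1.21 and -1.20 in withdrawn and -1.34 and -1.33 in continued cells, and on day 4 -1.29 and -1.34 in withdrawn and -1.63 and -1.53 in continued cells. From day 2 no treated array overlapped an untreated or day 0 array. The level in withdrawn cells of day 3 was 4.24-fold below day 0 (log2 -2.08, SE 0.057, adjusted p = 5.7e-14), and the partner Z00025726-1 gave 4.22-fold (log2 -2.08, SE 0.059, adjusted p = 8.5e-14). These 2 probes read nearly the same sequence, so they are not separate evidence.

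The other falls of this kind differed in their time course. Z00075588-1 read 0.99 and 0.92 on day 0, -0.13 and -0.15 after 1 day of tamoxifen, -1.03 and -1.13 in withdrawn cells of day 3 and -0.49 and -0.57 in those of day 4. It was thus lowest on days 2 and 3 and higher again on day 4, where the continued arrays read -0.52 and -0.61. On day 3 it was 4.10-fold below day 0 in withdrawn cells (log2 -2.03, SE 0.074, adjusted p = 1.7e-12).

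Z00022662-1 moved in steps. It read 1.49 and 1.28 on day 0 and 2.73 and 3.00 in untreated cells of day 1. With tamoxifen on day 1 both arrays read 2.09, above day 0, and in withdrawn cells it read 0.58 and 0.68 on day 2, -0.02 and -0.13 on day 3 and -0.74 and -0.95 on day 4. Continued cells read 0.48 and 0.65, then -0.26 and -0.14, then -0.94 and -0.88 on the same days. The level in withdrawn cells fell by 0.70 from day 2 to day 3 (SE 0.097, adjusted p = 6e-05) and was 2.75-fold below day 0 on day 3 (log2 -1.46, SE 0.097, adjusted p = 2.6e-09). With the local backgrounds as given, the fall from day 2 to day 3 had an adjusted p of 0.27, the highest of 14 alternatives.

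Z00029238-1 read 1.11 and 1.24 on day 0, 0.36 and 0.29 in tamoxifen on day 1, -0.41 and -0.28 in withdrawn cells of day 2, -0.33 and -0.35 in those of day 3 and -0.57 and -0.62 in those of day 4. Its level in withdrawn cells of day 3 was 2.85-fold below day 0 (log2 -1.51, SE 0.10, adjusted p = 2.6e-09), and processed signals gave a log2 difference of -3.19. The probe was well above background on only 1 array of withdrawn cells of day 3 and on none of day 4. The depth of its fall there is therefore uncertain. Z00045503-1 read 0.00 and -0.07 on day 0, -1.14 and -1.12 in withdrawn cells of day 2 and -1.36 and -1.33 in those of day 3. It was 2.47-fold below day 0 on day 3 (log2 -1.30, SE 0.070, adjusted p = 1.8e-10).

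**Figure D4:**
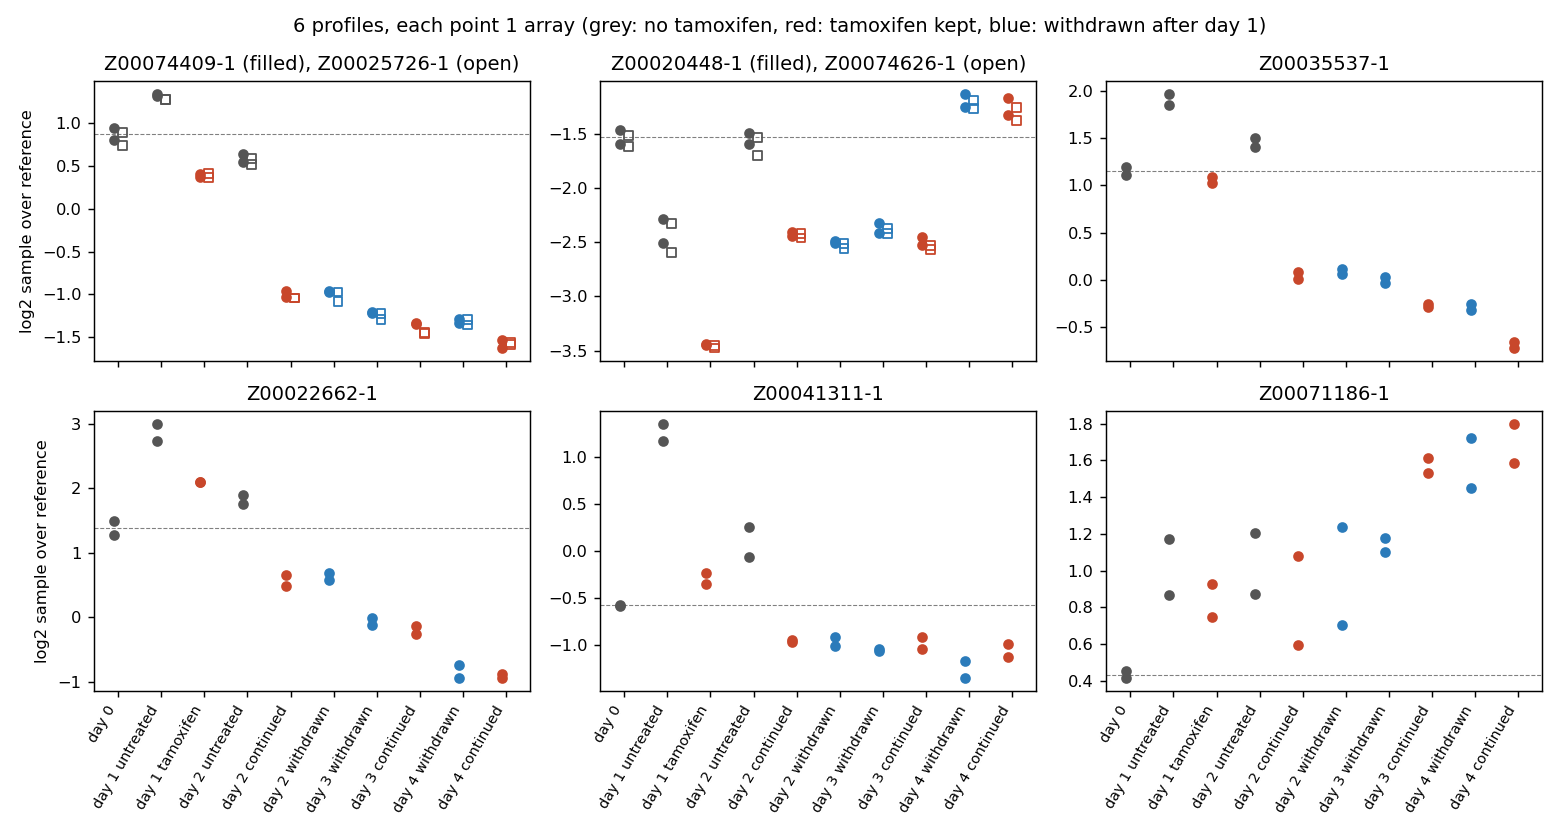
Log2 ratio of sample over reference (y axis) of 8 probes in 6 panels on each array (points, 2 per group along the x axis), in grey for cells without tamoxifen, red for tamoxifen kept and blue for tamoxifen withdrawn after day 1. The dashed line is the day 0 mean of the panel's first probe; Z00074409-1 and Z00022662-1 end far below it, Z00020448-1 returns above it on day 4, and Z00071186-1 lies above it throughout.

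The ratios of the brightest probes on day 0 depend least on background. For the 4 brightest, differences from day 0 in withdrawn cells of day 3 ran from -1.16 to -0.49, beside a median of -0.50 over the 130. Z00035537-1, at 143673 units, read 1.20 and 1.11 on day 0, 0.03 and -0.03 in withdrawn cells of day 3 and -0.26 and -0.32 in those of day 4 (day 3 against day 0: log2 -1.16, SE 0.060, adjusted p = 1.1e-10). Z00063278-1 and Z00070602-1 were lower than day 0 by 0.61 and 0.90 (log2 -0.61 and -0.90, SE 0.079 and 0.061). Their adjusted p were 8.6e-06 and 3.6e-09. Z00063278-1 read 1.35 and 1.53 in untreated cells of day 1 against 0.62 and 0.58 with tamoxifen, both above its day 0 readings of 0.41 and 0.14. The remaining one of the 4 brightest, Z00023847-1, is described with the probes that came back.

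The dimmest leading probes carried little information on this scale. Z00029155-1 read 0.24 and 0.14 on day 0 and -0.04 and -0.15 in withdrawn cells of day 3, where it was not well above background on either array. Its log2 ratio there differed from day 0 by -0.28 (SE 0.075, adjusted p = 0.0067, and 0.002 to 0.098 over 13 alternatives), and processed signals gave -1.82. By its sample signals it was at least 1.17-fold lower there, a bound that was not tested. Such a bound sets the bright group's mean signal against the higher of the dim probe's own signal and the array's lowest signal well above background. Z00070603-1, also not well above background there, differed from day 0 by -0.18 (SE 0.090, adjusted p = 0.13), although processed signals gave -1.63. Z00010159-1 differed by -0.18 (adjusted p = 0.044, and 0.01 to 0.22 over 13 alternatives). It was not well above background on any array of day 0 or of withdrawn cells of day 3. That call sets background against background, so it cannot show whether the RNA fell. Z00041311-1 read -1.07 and -1.04 in withdrawn cells of day 3, below day 0 (log2 -0.47, SE 0.094, adjusted p = 0.00059), with an adjusted p of 0.20 with the local backgrounds as given, the highest of 13 alternatives.

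Between 1 and 2 days after withdrawal, probes were called in both directions. From day 2 to day 3 in withdrawn cells, 21 of the 130 probes (16.2%) fell, against 11.7% of all probes tested, and 10 (7.69%) rose, against 13.7%. The groups lay on different slides, so slide and day cannot be told apart in this comparison either. The median difference was -0.04 beside 0.00 over all probes, with a range of -0.74 to 0.56, and none of these changes reached 2-fold. This count rests on few arrays. It fell in each fit without 1 array of either group, and was 5 with the local backgrounds as given, in place of 31. The shares of all probes called in those fits were not computed, so a drop particular to the 130 cannot be told from a general one. The lowest difference was that of Z00075493-1 (log2 -0.74, adjusted p = 2.8e-06) and the highest that of Z00054953-1 (log2 0.56, adjusted p = 0.00023), both singled out after their values were seen.

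On day 4 part of the 130 probes read at or above their starting level in both schedules. Day 0 and day 4 lay on different slides, so slide and day cannot be told apart here. The arrays of day 4 took part in the choice only through the difference between schedules, so these levels are given as a description. In withdrawn cells, 93 probes had both arrays below both day 0 arrays, against 33.4% of all probes tested, and 20 had both above, against 42.9%. In continued cells, 100 had both below, against 34.6%, and 17 both above, against 43.6%. For 15 probes all 4 arrays of day 4 lay above both day 0 arrays, against 36.9% of all probes tested. Of these 15, 10 had been called below day 0 in withdrawn cells of day 3 and 1 above it. Their median difference from day 0 was -0.34 on day 3 and 0.53 on day 4 in withdrawn cells. For those 10, a level below the start was thus measured on day 3 but not on day 4. Among all 130 probes, 105 were called below day 0 in withdrawn cells of day 3. The share so called among all probes tested whose day 4 arrays lay above day 0 was not computed.

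The overlapping probes Z00020448-1 and Z00074626-1 both showed this course. They share 44 bases and may read the same RNA, so they are not separate evidence. Z00020448-1 read -1.47 and -1.60 on day 0, -2.51 and -2.29 in untreated cells of day 1 and -3.45 and -3.44 with tamoxifen on day 1, its lowest level. Untreated cells of day 2 read -1.60 and -1.49 and withdrawn cells of that day -2.49 and -2.50. On day 3 withdrawn cells were at -2.41 and -2.32, below day 0 (log2 -0.84, SE 0.077, adjusted p = 1.5e-07), and on day 4 they were at -1.25 and -1.13, above both day 0 arrays. Continued cells of day 4 read -1.33 and -1.17. The partner Z00074626-1 differed from day 0 by -0.83 on day 3 and 0.34 on day 4 in withdrawn cells, against -0.84 and 0.34 for Z00020448-1.

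The bright probe Z00023847-1 (41400 units on day 0) also came back. It read -0.61 and -0.62 on day 0, -1.59 and -1.59 with tamoxifen on day 1, -1.44 and -1.41 in withdrawn cells of day 2, -1.13 and -1.07 in those of day 3 and -0.41 on both arrays of day 4. The rise from day 2 to day 3 in withdrawn cells was called (log2 0.32, SE 0.053, adjusted p = 0.00028), and on day 3 the level was still below day 0 (log2 -0.49, SE 0.053, adjusted p = 1.1e-06). Continued cells of day 4 read -0.58 and -0.56, also above day 0.

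**Figure D5:**
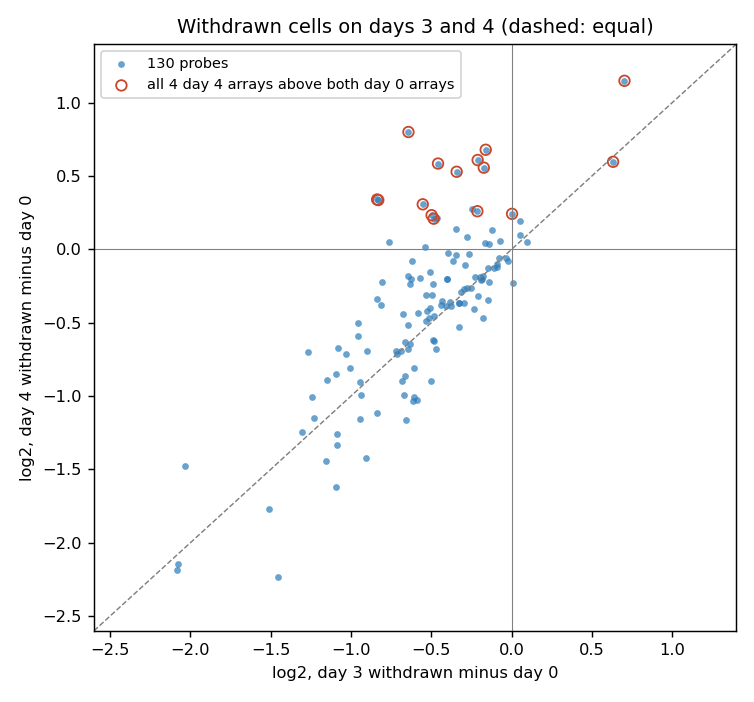
Log2 difference from day 0 of the 130 probes in withdrawn cells on day 3 (x axis) and day 4 (y axis), each a mean of 2 arrays, with the dashed line where both are equal. Both axes subtract the same day 0 arrays; the 15 circled probes, whose 4 arrays of day 4 all lay above both day 0 arrays, are at 0.21 to 1.15 on the y axis.

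The time at which a probe was lowest differed as well. The lowest group mean fell in tamoxifen on day 1 for 22 of the 130 probes, in continued and in withdrawn cells of day 2 for 12 each, and on day 3 for 25 in continued and 13 in withdrawn cells. On day 4 it fell in continued cells for 29 and in withdrawn cells for 14, and 3 probes were lowest on day 0. From day 2 to day 4, the mean in withdrawn cells went down for 59 of the 130.

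In withdrawn cells of day 3, 7 of the 130 probes had a mean at or above day 0. The 4 highest were Z00071186-1 (0.70), Z00061746-1 (0.63), Z00023462-1 (0.10) and Z00077560-1 (0.05). Z00071186-1 rose against day 0, where it read 0.42 and 0.45, to 1.10 and 1.18 in withdrawn cells of day 3 (SE 0.17, adjusted p = 0.0028, and 3.4e-05 to 0.10 over 14 alternatives, highest with the local backgrounds as given). It read 1.53 and 1.61 in continued cells of day 3 and 1.45 to 1.80 on day 4. Z00061746-1 read -0.76 and -0.18 on day 0, so its difference of 0.63 on day 3 was not called (SE 0.25, adjusted p = 0.053), and in continued cells it was 1.09 (adjusted p = 0.0017). Z00023462-1 and Z00077560-1 were dim, at 14.6 and 32.9 units on day 0, and neither differed from day 0 in withdrawn cells of day 3 beyond its error (SE 0.095 and 0.082, adjusted p = 0.44 and 0.66).

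Overlapping probes outside the set did not always read like their partners. Z00075231-1 shares 38 bases with Z00015207-1 but missed the day 2 limit, with processed differences of -0.75 on day 1 and -0.33 on day 2, against -1.69 and -1.91 for Z00015207-1. In withdrawn cells of day 3 both were below day 0, Z00015207-1 by log2 -0.68 (SE 0.097, adjusted p = 2.4e-05) and Z00075231-1 by log2 -0.46 (SE 0.088, adjusted p = 0.00048). On day 3 their continued minus withdrawn differences were -0.29 and 0.12, both uncalled. Z00024325-1, which shares 59 bases with Z00060342-1, had processed differences of -1.14 and -0.51 on days 1 and 2, against -1.08 and -1.03. In withdrawn cells of day 3 it was called below day 0 (log2 -0.31, SE 0.061, adjusted p = 0.00053), and Z00060342-1, with log2 -0.19 (SE 0.092), was not (adjusted p = 0.11). Probes that share most of their bases thus lay on both sides of the day 2 limit. Their processed differences on day 2 were well apart, at -0.33 against -1.91 and -0.51 against -1.03. After normexp and loess, continued cells of day 2 differed from day 0 by -0.16 for Z00075231-1 and -0.81 for Z00015207-1. For Z00024325-1 and Z00060342-1 both differed by -0.22, and untreated cells of that day by 0.01 and 0.09. The gap of the pair sharing 59 bases was thus small on this scale, which shrinks differences of dim probes.

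Of the 130 identifiers, none was in the RefSeq gene table, and no probe lay in a RefSeq miRNA sequence. All 60 bases of 2 probes matched a RefSeq promoter window of the assembly GRCm38.p6. Z00072951-1 matched chromosome 5 from 137612512 to 137612571, on the strand opposite to the nearby start of Gm36266, inside the annotated span of Fbxo24. Fbxo24 is named for its F-box, a motif of proteins that bring substrates to ubiquitin ligases. The probe read 0.39 and 0.38 on day 0, 0.01 and -0.03 with tamoxifen on day 1, -0.39 and -0.17 in withdrawn cells of day 2 and -0.52 and -0.60 in those of day 3 (day 3 against day 0: log2 -0.94, SE 0.075, adjusted p = 2.6e-08). Continued cells of day 3 read -0.84 and -0.76.

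Z00070705-1 matched chromosome 14 from 52019729 to 52019788, on the strand opposite to Zfp219, a zinc finger gene, and on the strand of Tmem253, a transmembrane protein gene whose span reaches into this stretch. It read 0.65 and 0.66 on day 0, 1.43 and 1.37 in untreated cells and 0.50 and 0.57 with tamoxifen on day 1, and -0.03 and 0.04 in withdrawn cells of day 3. The level on day 3 was below day 0 (log2 -0.65, SE 0.061, adjusted p = 2.1e-07, and 1.9e-07 to 0.067 over 14 alternatives, highest with the local backgrounds as given). On day 4 both schedules read 0.06 to 0.15. The table gives no exons, so neither probe is assigned to an exon or an untranslated region.

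The 130 probes were dimmer on day 0 than the 26109 probes that met the same background condition and had no missing value, with a median sample signal of 189 (quartiles 68.4 and 957) against 907 (quartiles 172 and 4573). Their median GC content was 45%, as for those probes. The log2 ratio was above 1 on both day 0 arrays for 16 of the 130 (12.3%, against 7.01%) and below -1 on both for 20 (15.4%, against 12.4%). The letters AATAAA, a polyadenylation signal, stood in 15 of the 130 probes as printed (11.5%, against 7.76%) and on the other strand in 5 (3.85%, against 3.06%). ATTAAA stood in 4 as printed (3.08%, against 3.34%) and in 1 on the other strand (0.769%, against 2.27%). ATTTA, whose reverse complement can overlap AATAAA, stood in 9 as printed (6.92%, against 7.06%) and in 12 on the other strand (9.23%, against 8.09%).

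An array had 26199 to 30069 probes well above background, and replicate arrays correlated at 0.9845 to 0.9954 across probes. The median replicate SD of the 130 probes ran from 0.046 in withdrawn cells of day 3 to 0.084 in untreated cells of day 1. On both arrays of a group, 6 of the 130 were not well above background on day 0, 20 in tamoxifen on day 1, 14 and 25 in withdrawn and continued cells of day 2, 10 and 15 on day 3 and 14 and 17 on day 4. None was saturated on any array and none had a missing value.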

How the data were processed

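RNA labelled with Cy3 and a common reference labelled with Cy5, a pool of mouse cell line and ES cell RNA, were hybridised to 20 Agilent arrays on 5 slides. The deposited scanner files hold linear intensity values per spot (mean, local background and processed signals). Per the file headers, the program was Agilent Feature Extraction, version 9.5.1.1. The deposited series matrix holds log10 values, with medians of 2.305 to 2.336 and unstated centring and scaling, which correlated at 0.9935 to 0.9973 with log10 processed sample signals and served as an alternative.

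Mean signals were corrected by normexp (offset 50) and normalized by loess within arrays (limma 3.58.1, R 4.3.3). Local backgrounds over 10 times their channel's median (6 spots in each channel of 1 array) were replaced by that median, and outlier spots set to missing. Probes well above background on both arrays of 1 or more groups (29414) entered one group-means model over all arrays (lmFit, eBayes, 10 residual degrees of freedom). Calls are two-sided at a Benjamini-Hochberg adjusted p under 0.05. The fit was tested on simulated data. The 5 comparisons tested use the 8 arrays that the choice of probes did not.

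The probes, lists and this background limit were chosen with earlier results of these data known. Probes named individually were the 6 lowest by the choosing differences, the 6 lowest and 4 highest against day 0 in withdrawn cells of day 3, the 4 lowest and 4 highest between schedules on day 3, the 4 brightest on day 0, the 3 nearest each side of each limit, and all with an overlapping probe or a sequence match. Marker and pathway lists needed gene names and were not applied. Each group lay on 1 slide, so slide was not a term.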

Additional observations from a re-analysis of the deposited data

How the results depend on the processing

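The median of the 130 probes in withdrawn cells of day 3 relative to day 0 was -0.50, and -0.97 on Agilent's processed signals, -0.39 with median centring and -0.99 on series matrix values (95 of the probes). Counts of calls against day 0 stayed within 1.5 times, except with the local backgrounds as given (69 in place of 106 in withdrawn cells of day 3, 58 in place of 109 in those of day 2). That setting alters 1 array outside these comparisons, which enters only the estimate of spread. Leaving out 1 array of either group lowered each of the 3 counts against day 0, within the same 1.5 times. Between schedules on day 3, no probe was called in the main fit. Z00035537-1 was called lower in continued cells without background correction or with the stricter filter. Z00071186-1 was called higher with only the 2 groups in the fit. From day 2 to day 3 in withdrawn cells, 31 calls became 5 with backgrounds as given, 14 at an adjusted p under 0.01 and 11 to 20 without 1 array. Shares of all probes called under these alternatives were computed only for falls of withdrawn cells from day 0 with backgrounds as given.

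The choice itself gave 63 probes on normexp and loess values, 73 with a day 4 limit of -0.2, 187 with -0.6, 39 with limits of -1 on days 1 and 2, 100 on series matrix values (87 shared), and 120 to 168 without 1 array. For the 27 probes named with tests, 1820 of 1935 alternative values kept their side of the threshold, 90 lost a call, 25 gained one and none reversed a called direction. The cause of these changes was not tested.

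With the replicate block, which the labels do not tie to cultures, the calls numbered 0 between schedules on day 3, 105, 111 and 109 against day 0 and 32 from day 2 to day 3. The share of all probes called with this block was not computed. Same-numbered arrays of the 45 pairs of groups deviated with correlations of -0.288 to 0.284, and 9 exceeded 0.1. Array number limits precision, and 46 of the 130 probes were near background on at least 1 array.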
